A study of Mus musculus with 3 samples.

Results

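The Rab GTPases of mouse bladder urothelium are described here: the 59 genes whose symbol is Rab followed by a number and at most a letter and a further digit, of 31053 genes in the files. The rule used names and no measured value. Their levels were compared across 3 single-cell RNA sequencing libraries, between urothelial and immune cells, and along the uroplakin content of the urothelial cells.

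Rab GTPases are small membrane proteins that cycle between a GTP-bound and a GDP-bound form and mark the compartments of vesicle traffic. Each recruits effectors, such as motors, tethers and Slp proteins, that move a vesicle or dock it at its target membrane. The urothelium lines the bladder, and its superficial umbrella cells deliver uroplakin plaques to the apical surface in fusiform vesicles, a route for which Rab27b, Rab11a and Rab8a are textbook members.

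The groups were wild type, Lpar6 knockout and Cab39l knockout, each 1 library of bladder urothelial cells released with trypsin and pooled from 15 mice. Lpar6 is a receptor for lysophosphatidic acid, and Cab39l is a relative of the MO25 scaffold that binds the kinase LKB1. The labels used here give no age, sex, strain, alleles or deleting Cre, so nothing limits the deletions to urothelial cells in these descriptions. With 1 library a group there was no replicate and no test. Every interval below is an exact 95% interval that covers counting error only, and a difference between libraries cannot be told apart from a difference between pools or preparations.

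The files held 8085, 8293 and 9406 cell barcodes (wild type, Lpar6 knockout, Cab39l knockout, the order used throughout), with 101977647, 139250807 and 175075246 UMIs (tagged transcript molecules). Urothelial cells were barcodes with at least 5000 UMIs, at most 20% mitochondrial UMIs and at least 0.2% of UMIs from Upk1a, Upk1b, Upk2 and Upk3a, which gave 3176, 4834 and 5466 cells at median depths of 22252.5, 26994 and 29960.5 UMIs. The 13 urothelial markers, 4 of them the uroplakins that chose the cells, summed to 17560, 19430 and 19740 CPM (UMIs per 1000000), against 2321, 3895 and 2633 CPM in the immune cells. Endothelial Cdh5 and Kdr were at 0 in all 3. Leukocyte markers summed to 55.9, 57.63 and 66.75 CPM, against 6875, 5582 and 4926 CPM in the immune cells. These markers are the genes that chose the immune cells, so their high immune sum was set by that choice. Haemoglobin genes summed to 308.3, 148.9 and 66.25 CPM, and male secretory gland genes to 11.95, 2.908 and 342.3 CPM, and their part in the results was not tested. The median mitochondrial share was 9.02%, 6.27% and 6.17%. Pairs of libraries shared 16 to 19 barcodes, of which 3 to 8 were urothelial. Lpar6 checked its label, with 13.76 CPM in wild type, 0 UMIs in the Lpar6 knockout and 12.11 CPM in the Cab39l knockout. Cab39l was at 112.4, 93.96 and 31.74 CPM, so the library labelled Cab39l knockout kept transcripts of its target, and no label names the deleted exons.

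The upstream regions of 3 members are shown for their place along the ranking of cells by 4 uroplakins. Averaged over the 3 libraries, Rab11a and Rab25 had the highest log2 ratio of top to bottom set (0.55 and 0.49) and Rab27a the lowest (-0.66), although in wild type the direction of Rab25 and Rab27a depended on the uroplakins used. Each run is the 250 bases before an annotated start (RefSeq, GRCm38.p6), 5′ to 3′ on the gene's strand, and capitals mark a match to a searched motif on either strand.
Rab11a, chr9:64737757-64738006, minus strand: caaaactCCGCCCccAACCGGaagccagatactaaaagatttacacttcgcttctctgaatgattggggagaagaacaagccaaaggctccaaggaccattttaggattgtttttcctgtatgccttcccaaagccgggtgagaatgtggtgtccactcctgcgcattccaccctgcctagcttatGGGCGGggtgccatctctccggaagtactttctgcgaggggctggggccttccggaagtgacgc
Rab25, chr3:88548280-88548529, minus strand: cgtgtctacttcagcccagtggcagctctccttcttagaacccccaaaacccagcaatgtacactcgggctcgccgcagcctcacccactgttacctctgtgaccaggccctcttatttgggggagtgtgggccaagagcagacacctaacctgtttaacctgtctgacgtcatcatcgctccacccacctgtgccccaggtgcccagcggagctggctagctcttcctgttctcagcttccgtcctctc
Rab27a, upstream start, chr9:73044560-73044809, plus strand: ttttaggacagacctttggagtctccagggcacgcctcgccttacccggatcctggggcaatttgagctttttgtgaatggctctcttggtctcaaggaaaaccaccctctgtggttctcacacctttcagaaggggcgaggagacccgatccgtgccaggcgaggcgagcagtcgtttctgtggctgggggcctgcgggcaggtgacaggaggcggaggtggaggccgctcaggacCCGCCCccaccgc
Rab27a, downstream start, chr9:73063898-73064147, plus strand: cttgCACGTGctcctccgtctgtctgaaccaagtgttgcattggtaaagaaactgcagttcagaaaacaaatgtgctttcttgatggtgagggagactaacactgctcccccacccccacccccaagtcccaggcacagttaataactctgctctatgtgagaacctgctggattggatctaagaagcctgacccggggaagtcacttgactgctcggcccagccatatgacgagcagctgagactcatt
The Rab11a window held 2 matches to GGGCGG (letters of Sp and Klf sites) and 1 to AACCGG (letters of grainyhead-like sites), none overlapping. Rab27a has a pair of annotated starts, the first with GGGCGG and the other with CACGTG, the E-box of Mitf and Tfeb. No searched motif was found in the Rab25 window. The Rab windows counted (60 windows of 48 members) do not cover the whole family, and the background does not cover every gene. GGGCGG was in 66.7% of these Rab windows, against 32.7% of the 32851 windows counted. Median GC content was 60.2% against 52.4%. CACGTG was in 8.33% against 6.02%, AACCGG in 8.33% against 5.62%, AP-1 letters TGACTCA in 3.33% against 4.46%, GATA letters AGATAA in 3.33% against 9.99% and TATAAA in 6.67% against 12.4%. These are letter matches only.

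A few members held a large share of the Rab transcripts in urothelial cells. Summed Rab transcripts reached 3105, 2725 and 2738 CPM, and the 5 highest members held 49.8%, 51.2% and 51.8% of that. Of the 59 members, 39, 38 and 37 were at 5 CPM or more, and 15, 16 and 15 were under 1 CPM, a level at which free RNA in the droplets was not told apart from expression. Rab9b had no UMI in any of the libraries. Since the assay tags each molecule at its 3′ end, levels count molecules and were not divided by transcript length.

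**Figure D1:**
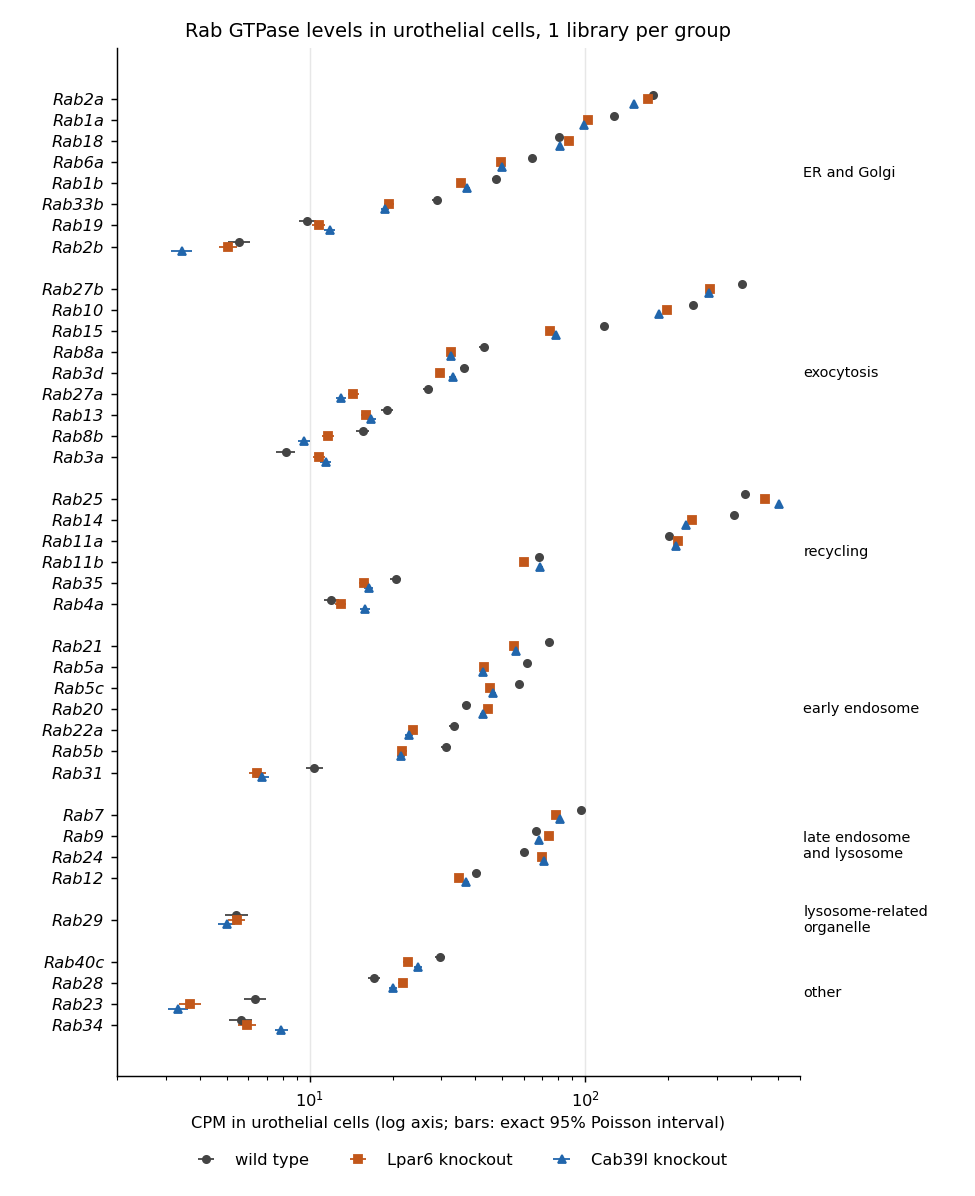
Level of each Rab gene that reached 5 CPM in at least 1 library, in urothelial cells, grouped by the compartment it is known for (x axis: CPM, log scale; 1 point per library, bars: exact 95% Poisson interval). Rab25 and Rab27b lead the family, with Rab25 highest in the Cab39l knockout at 504.5 CPM and Rab27b highest in wild type at 371.6 CPM.

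Recycling Rabs carried the largest summed level, 1030, 1002 and 1054 CPM over 8 members. Rab25, an epithelial member of the Rab11 group (chromosome 3, 88542029 to 88548300, GRCm38), was at 379.2, 450.8 and 504.5 CPM. Rab11a, which works in recycling endosomes and in the transport of fusiform vesicles (chromosome 9, 64715299 to 64737758), was at 202.4, 216.5 and 214.6 CPM. Its close relative Rab11b was lower, at 67.98, 59.97 and 68.88 CPM. Rab14, of the Golgi and recycling endosome, was at 346.8, 244.8 and 232.8 CPM, highest in wild type. Rab35 and Rab4a, of fast recycling, stayed between 12.01 and 20.52 CPM in the 3 libraries.

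Exocytic Rabs came second, with 884.4, 674.9 and 661.9 CPM over 13 members. Rab27b, which docks secretory vesicles through Slp effectors, was at 371.6, 284.8 and 281.5 CPM. Its paralog Rab27a, best known from melanosomes and cytotoxic granules (chromosome 9, 73044854 to 73097629), was far lower at 26.91, 14.39 and 13.04 CPM. Rab10, of basolateral and exocytic transport, was at 245.5, 199.0 and 185.2 CPM, and Rab15, of endosomes and regulated secretion, at 117.0, 74.72 and 78.17 CPM. Rab8a, which acts with Rab11a in apical delivery, was at 42.79, 32.72 and 32.64 CPM, and Rab8b at 15.58, 11.66 and 9.551 CPM. Rab3d, a secretory granule member, was at 36.44, 29.76 and 33.04 CPM, and junctional Rab13 at 19.15, 16.03 and 16.75 CPM. In each of these 8 genes the wild type interval lay above those of both knockouts. Most genes of any kind were lower in the knockouts too, with median log2 ratios to wild type of -0.38 and -0.36. The share of all genes with such intervals was not counted, and directions against wild type depended on the scaling. Rab3a, an exocytic member too, went the other way, from 8.179 to 10.81 and 11.46 CPM.

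The ER and Golgi members summed to 546.9, 483.0 and 456.7 CPM. Rab2a led them at 175.7, 169.7 and 150.8 CPM, followed by Rab1a, of ER-to-Golgi transport, at 127.8, 102.2 and 99.45 CPM. Rab18, of lipid droplets and the ER, differed little, at 80.58, 87.72 and 81.17 CPM, and Rab6a, of retrograde Golgi traffic, was at 64.39, 49.6 and 49.76 CPM. Early endosomal members summed to 305.2, 239.1 and 239.0 CPM, with Rab5a at 61.65, 42.91 and 42.64 CPM and Rab5c at 57.64, 45.05 and 46.47 CPM. Late endosomal and lysosomal members summed to 263.8, 256.7 and 256.6 CPM, and Rab7, the late endosome marker, was at 96.98, 78.14 and 80.91 CPM.

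Some members tied to specialised organelles were low or nearly absent. The lysosome-related group of 3 genes, Rab29, Rab32 and Rab38, summed to 7.912, 7.238 and 7.02 CPM, of which Rab29 held 5.415, 5.435 and 5.001 CPM. Rab17, known from apical recycling in other epithelia, was at 0.3058, 0.9174 and 0.5188 CPM. Neuronal Rab3b and Rab3c were under 0.3 CPM in each library, while their relative Rab3a was at 8.179, 10.81 and 11.46 CPM.

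Next, urothelial cells were set against the immune cells of the same library, taken as barcodes with at least 1000 UMIs and leukocyte gene expression. There were 634, 78 and 186 immune cells with 2491077, 260302 and 954282 UMIs, so the immune side was shallow, above all in the Lpar6 knockout. The immune cells also held urothelial RNA: their uroplakin level was 12.3%, 18.5% and 11.9% of the urothelial one. A gene whose immune level sits at that ratio is at the background of urothelial RNA in these barcodes. Whether that RNA was free or came from urothelial cells in the same barcodes was not tested.

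Rab27b, Rab25 and Rab15 stood farthest above the immune cells. For Rab27b the immune level was 35.33, 57.63 and 24.1 CPM, against 371.6, 284.8 and 281.5 CPM in urothelial cells, a ratio of 10.5 (interval 8.53 to 13.1), 4.94 (3.0 to 8.83) and 11.7 (7.78 to 18.4). For Rab25 the immune level was 45.76, 96.04 and 74.4 CPM and the ratio 8.29 (6.89 to 10.0), 4.69 (3.18 to 7.25) and 6.78 (5.37 to 8.68). For Rab15 the immune level was 14.45, 19.21 and 7.335 CPM and the ratio 8.1 (5.84 to 11.6), 3.89 (1.67 to 12) and 10.7 (5.17 to 26.5).

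These immune levels were close to that background of urothelial RNA. In wild type, immune Rab25 was 12.1%, Rab15 12.3% and Rab27b 9.51% of the urothelial level, against 12.3% for the uroplakins. In the Lpar6 knockout they were 21.3%, 25.7% and 20.2% against 18.5%, and in the Cab39l knockout 14.7%, 9.38% and 8.56% against 11.9%. Immune expression of the 3 genes above that background was not detectable at this depth. Rab11a differed, at 106.4, 103.7 and 115.3 CPM in immune cells, which was 52.6%, 47.9% and 53.7% of the urothelial level.

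The shares of cells with a UMI pointed the same way after each cell was thinned to 1000 UMIs. Rab27b was found in 30.6%, 23.3% and 23.4% of urothelial cells and in 5.52%, 10.3% and 2.69% of immune cells. Rab25 was found in 27.9%, 36.1% and 38.4% of urothelial cells and in 5.99%, 10.3% and 5.91% of immune cells. Without thinning, Rab27b was found in 98.7%, 98% and 97.7% of urothelial cells and in 12.1%, 17.9% and 11.3% of immune cells, whose median depths were 3034.5, 2377.5 and 3997 UMIs.

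**Figure D2:**
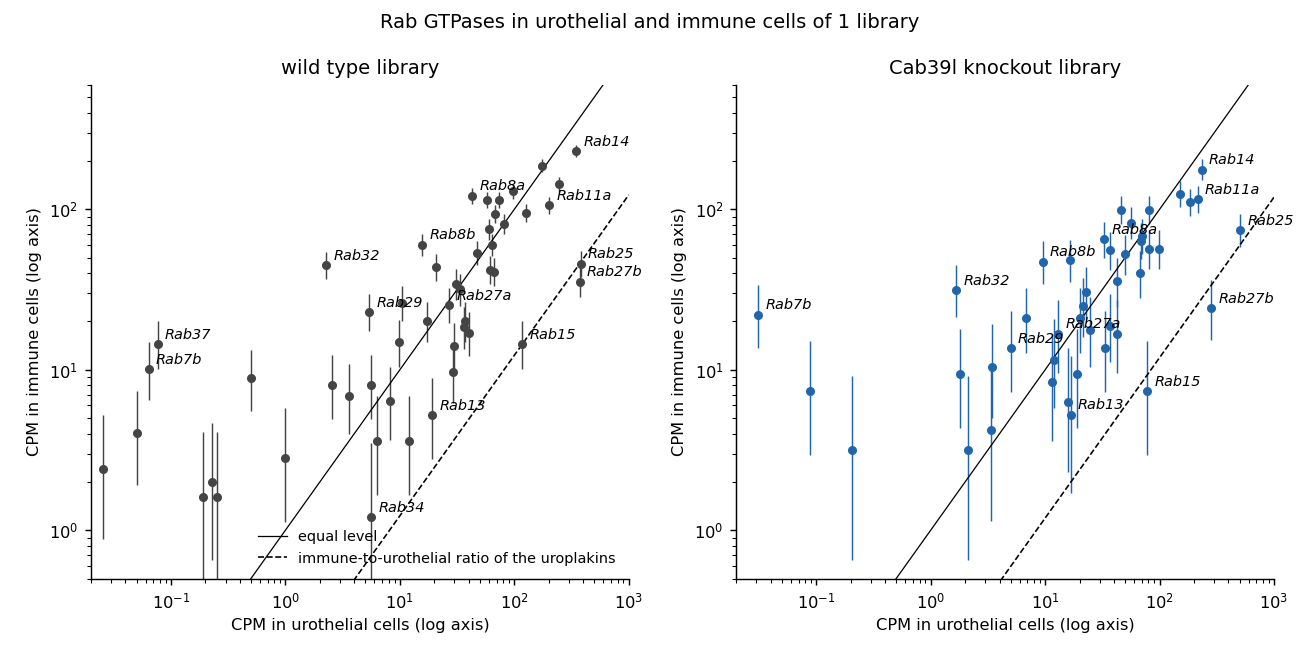
Rab genes in urothelial cells (x axis) and immune cells (y axis) of the wild type and Cab39l knockout libraries, both in CPM on log scales, for members with at least 3 immune UMIs (points: genes; bars: exact 95% Poisson interval of the immune level). Rab25 and Rab15 lie near the dashed line, the immune-to-urothelial ratio of the uroplakins, while Rab32 lies far above the solid line of equal levels.

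Over the family, the shares of members that were 2-fold apart between urothelial and immune cells lay near those of all genes in wild type and the Cab39l knockout. In wild type, 9 of 43 members with at least 50 UMIs over both sums and 5 CPM in the higher were at least 2-fold higher in urothelial cells (20.9%, against 21.1% of all genes) and 8 were at least 2-fold lower (18.6%, against 18.6%). In the Lpar6 knockout it was 11 of 40 higher (27.5%, against 21.2%) and 6 lower (15.0%, against 21.2%), and 6 of those 11 had at most 3 immune UMIs. In the Cab39l knockout it was 8 of 40 higher (background 18.2%) and 8 lower (background 20.5%). Median log2 ratios were 0.07, 0.04 and 0.18 for the members and 0.04, -0.06 and -0.11 for all genes. The other 16, 19 and 19 members did not reach these minimums.

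In all 3 libraries, 6 of 40 members were at least 2-fold higher in urothelial cells on the log2 (CPM + 1) scale, against 12.6% of all genes: Rab25, Rab27b, Rab15, Rab13, Rab4a and Rab34. The last 3 rest on few immune UMIs. Rab13 had 13, 1 and 5, Rab4a 9, 0 and 6, and Rab34 3, 0 and 0. In the Lpar6 knockout the exact interval of the ratio began at 0.914 for Rab4a and at 0.748 for Rab13. A higher level of either was not detectable there at this depth. For Rab34 in the Cab39l knockout the interval began at 2.04. In the Lpar6 knockout Rab34 was under the limit that a count of 0 allows on both sides, so no fold is given there. Of the members counted as higher, 7, 4 and 4 had 10 or more immune UMIs.

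Lower in urothelial cells in all 3 libraries were 5 of 40 members, against 10.7% of all genes: Rab32, Rab8b, Rab43, Rab29 and Rab35. Rab32, of lysosome-related organelles and phagosomes, was at 2.268, 1.679 and 1.675 CPM in urothelial cells and 44.96, 19.21 and 31.44 CPM in immune cells, 19.8-fold (15.5 to 25.3), 11.4-fold (3.68 to 27.1) and 18.8-fold (12.4 to 27.4) higher in the latter. Immune Rab8b was at 60.21, 57.63 and 47.16 CPM, 3.86-fold (3.24 to 4.58), 4.94-fold (2.76 to 8.18) and 4.94-fold (3.59 to 6.64) above the urothelial level. Rab43 was at 8.029, 15.37 and 9.431 CPM in immune cells and at 2.561, 1.687 and 1.819 CPM in urothelial cells. At the uroplakin ratio, background urothelial RNA amounts to 2.53 CPM or less for each of these 5 genes in wild type.

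A few members, picked after their values were seen, differed in level between the kinds of immune cell. The wild type library had 159 B-like, 206 T- or NK-like, 201 macrophage- or dendritic-like and 45 neutrophil-like cells, assigned by their marker genes. Rab32 was at 85.8 CPM (69.8 to 104.0) in macrophage- or dendritic-like cells, 1.617 CPM in T- or NK-like cells and 0 UMIs in B-like cells. Rab37, an exocytic member, had 35 of its 36 immune UMIs in T- or NK-like cells (56.58 CPM, 39.4 to 78.7).

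Rab7b, of lysosomal transport in myeloid cells, was at 20.59 CPM (13.2 to 30.6) in macrophage- or dendritic-like cells and had no UMI in B-like or T- or NK-like cells. Rab29 and Rab31 were also highest among these 3 sets in macrophage- or dendritic-like cells, at 40.33 and 42.04 CPM. Neutrophil-like cells held 8 UMIs of Rab44, an atypical large member, or 73.54 CPM (31.8 to 145.0), and B-like cells held 9 UMIs of Rab30, or 17.07 CPM (7.81 to 32.4). The Cab39l knockout, with 47 macrophage- or dendritic-like and 25 T- or NK-like cells, had Rab32 at 74.79 CPM (50.1 to 107.0) and Rab7b at 54.16 CPM (33.5 to 82.8) in the former, and Rab37 at 59.05 CPM (19.2 to 138.0, 5 UMIs) in the latter. The Lpar6 knockout had 27 and 13 such cells, too few to place these genes.

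Rab effectors included several that were far higher in urothelial cells. The list of effectors and motors was chosen with earlier results of these data known, so its counts are descriptions. Of 34 effectors and motors listed, 29 passed the minimums in wild type, and 15 were at least 2-fold higher in urothelial cells and 4 lower (background 21.1% and 18.6%), with a median log2 ratio of 1.13. The counts were 10 higher and 4 lower of 26 in the Lpar6 knockout (background 21.2% and 21.2%, median 0.36), and 11 higher and 3 lower of 26 in the Cab39l knockout (background 18.2% and 20.5%, median 0.79). Among them were the Rab27 effectors Sytl2 and Sytl1, at 241.3 and 100.9 CPM in wild type urothelial cells and 34.92 and 16.46 CPM in immune cells. The Rab11 motor Myo5b was at 37.02 against 4.817 CPM in wild type and 24.83 against 1.048 CPM in the Cab39l knockout, and had no immune UMI in the Lpar6 knockout. Unc13d, the Rab27a effector of cytotoxic granules, was lower in urothelial cells, at 1.019, 0.6997 and 0.8126 CPM against 22.08, 11.53 and 16.77 CPM.

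No exocyst gene of 9 was 2-fold apart in wild type or the Cab39l knockout, and 1 was lower in the Lpar6 knockout. Exchange factors and GTPase activators were 6 higher and 6 lower of 33 in wild type (background 21.1% and 18.6%), 5 and 10 of 30 in the Lpar6 knockout (21.2% and 21.2%), and 4 and 12 of 31 in the Cab39l knockout (18.2% and 20.5%). Dennd4a was among the lower ones in each library, at 6.077, 3.639 and 2.975 CPM against 95.54, 61.47 and 85.93 CPM. In the list of vesicle fusion and turnover, Mal, an apical sorting protein, was higher in urothelial cells in each library, at 1189.0, 994.5 and 911.4 CPM against 132.1, 130.6 and 95.36 CPM.

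Along the uroplakin content of the urothelial cells, Rab11a, Rab25 and Rab27b had the highest top-to-bottom ratios and Rab27a the lowest. This order is by the mean log2 ratio over the 3 libraries (0.55, 0.49, 0.37 and -0.66), among members that passed the minimums in each. The cells of each library were ranked by the share of the 4 uroplakins in their UMIs and split in 4 equal sets of 794, 1208 or 1209, and 1366 or 1367 cells. From the lowest set to the highest, basal Krt5 went from 471.5 to 188.0 CPM in wild type, 260.7 to 125.8 in the Lpar6 knockout and 472.9 to 204.4 in the Cab39l knockout. Umbrella cell Krt20 went from 40.87 to 60.89, 31.33 to 56.84 and 20.4 to 44.16 CPM. Median depth moved along as well, from 16543 to 30112.5, 23348 to 28048 and 19817 to 34685.5 UMIs, and its part in the results was examined only by thinning and in cells of middle depth.

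Rab11a climbed through all 4 sets in each library. It was at 158.8, 182.5, 207.8 and 236.8 CPM in wild type, 176.7, 205.3, 223.8 and 253.0 CPM in the Lpar6 knockout, and 169.2, 198.0, 222.2 and 252.0 CPM in the Cab39l knockout. The top-to-bottom ratio was 1.49 (1.42 to 1.57), 1.43 (1.38 to 1.48) and 1.49 (1.44 to 1.54), and the intervals of the end sets did not overlap in any library. Its paralog Rab11b had ratios of 0.886, 0.966 and 1.03, with no common direction.

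Rab25 went from 280.3 to 463.5 CPM in wild type, 384.8 to 500.7 CPM in the Lpar6 knockout and 434.6 to 559.7 CPM in the Cab39l knockout. Its ratio was 1.65 (1.59 to 1.71), 1.3 (1.27 to 1.33) and 1.29 (1.26 to 1.32). Rab27b went from 332.2 to 386.4, 243.1 to 317.4 and 226.9 to 323.4 CPM, a ratio of 1.16 (1.12 to 1.2), 1.31 (1.27 to 1.35) and 1.43 (1.39 to 1.47). Under this ranking the steepest slope of Rab27b was in the Cab39l knockout, while that of Rab25 was in wild type.

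Rab27a ran the other way, from 32.41 to 20.44 CPM in wild type, 17.91 to 11.06 CPM in the Lpar6 knockout and 16.68 to 9.928 CPM in the Cab39l knockout. It was 1.59-fold (1.39 to 1.8), 1.62-fold (1.41 to 1.86) and 1.68-fold (1.48 to 1.91) lower in the top set. The Rab27 paralogs thus had opposite directions along this ranking in each library. Rab8a was flat, with ratios of 0.893, 1.08 and 1.01, and Rab10 with 0.999, 1.03 and 1.1.

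**Figure D3:**
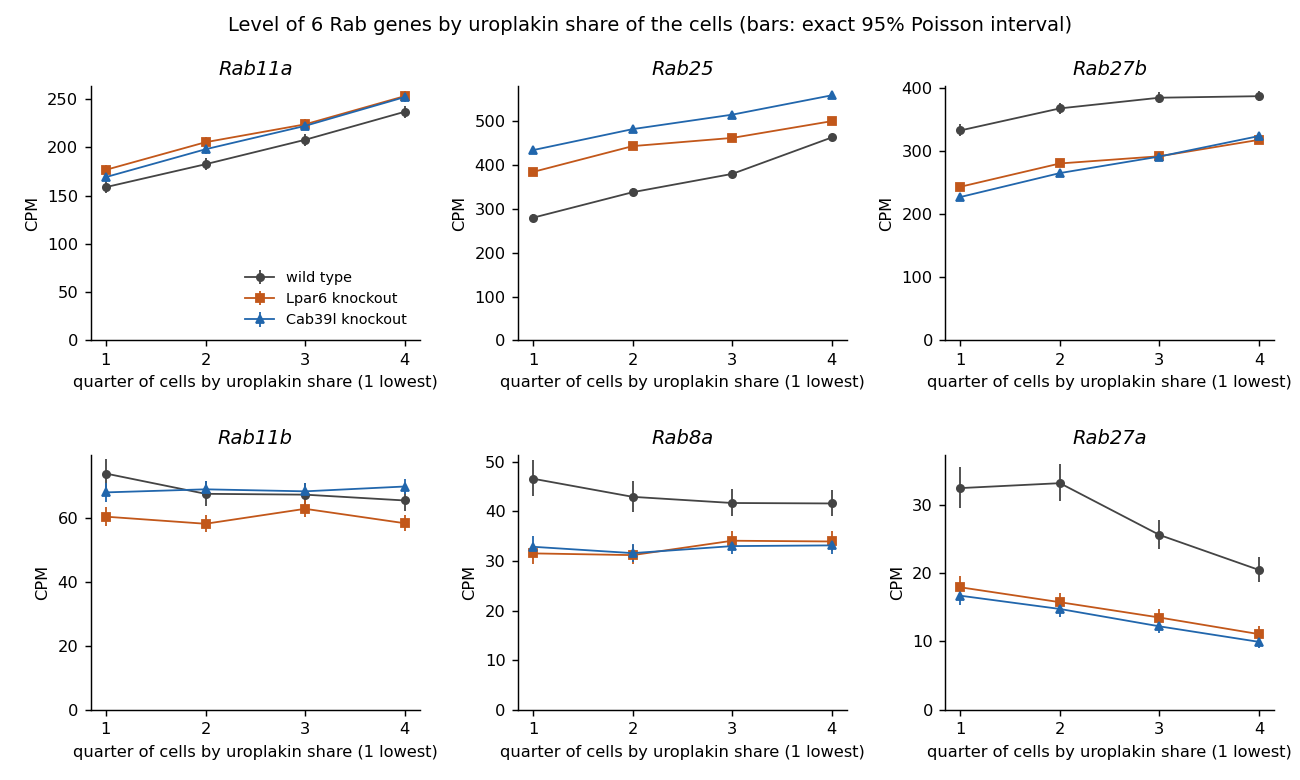
Level of 6 Rab genes (y axis: CPM, from 0) in 4 equal sets of urothelial cells ordered by uroplakin share (x axis: set 1 lowest, set 4 highest), 1 line per library, with exact 95% Poisson intervals. Rab11a, Rab25 and Rab27b are higher and Rab27a is lower in set 4 than in set 1 in each library, while Rab11b and Rab8a have ratios between 0.886 and 1.08.

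These were the ends of a family that hardly moved. In wild type, 1 of 40 members was at least 1.5-fold higher in the top set (Rab25, against 3.29% of all genes) and 3 were lower (Rab27a, Rab31 and Rab6b, against 8.34%). In the Lpar6 knockout 0 of 38 were higher (background 2.12%) and 1 lower (Rab27a, background 1.97%). In the Cab39l knockout 0 of 37 were higher (background 2.72%) and 1 lower (Rab27a, background 3.02%), so these shares lay near the background. Median log2 values were -0.14, 0.0 and 0.03 for the members and -0.13, -0.01 and -0.01 for all genes. Rab31, of the trans-Golgi and endosomes, was lower in the top set by 1.65-fold (1.34 to 2.02), 1.26-fold (1.03 to 1.54) and 1.26-fold (1.05 to 1.51). Rab34, a Golgi and ciliary member, had ratios of 0.624 (0.474 to 0.823), 0.979 (0.793 to 1.21) and 0.897 (0.757 to 1.06), apart from 1 in wild type only by its interval, with no test of that difference.

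Correlations across single cells had the same sign for these 4 genes in each library, but not the same order. With each cell thinned to 5000 UMIs, Spearman's rho with uroplakin share was 0.22, 0.131 and 0.14 for Rab25, 0.135, 0.082 and 0.139 for Rab11a, and 0.044, 0.112 and 0.128 for Rab27b, over 3176, 4834 and 5466 cells. For Rab27a it was -0.063, -0.05 and -0.053, which in counts this sparse is close to none. In wild type Rab14 and Rab2a, at 0.051 and 0.047, lay above Rab27b, and Rab31, at -0.071, lay below Rab27a. Cells of a library share its preparation, and the correlations are descriptions. At or above 0.1 were 2 of 40, 2 of 38 and 3 of 37 members, against 2.66%, 2.05% and 1.96% of all genes, and 0 members were at or below -0.1, against 2.18%, 1.4% and 1.48%.

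Transcript length also moved with uroplakin share in the ranking by 4 uroplakins. Across genes, the log2 ratio of the end sets fell with the length of the longest transcript (rho -0.44, -0.33 and -0.28). Rab25 is short (1.081 kb), Rab11a (2.336 kb) and Rab27a (3.168 kb) are intermediate and Rab27b is long (6.891 kb). Centred on genes of like length, a step chosen after the data were seen, the log2 ratios were 0.59, 0.42 and 0.5 for Rab11a, 0.56, 0.29 and 0.29 for Rab25, 0.52, 0.49 and 0.65 for Rab27b, and -0.51, -0.66 and -0.69 for Rab27a. The 4 directions held under this ranking.

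In wild type the directions depended on the uroplakins used. Ranked by Upk2 alone, 23 of 39 members had the other sign, 19 of them going from below to above 0, and the median log2 ratio of all genes was 0.19 in place of -0.13. Under that ranking, Rab25 in wild type had a log2 ratio of -0.13 (361.4 to 330.6 CPM) and Rab27a 0.36 (23.9 to 31.04 CPM), both the reverse of the ranking by 4 uroplakins. Rab11a kept its direction at 0.42, and Rab27b was at 0.76. That ranking also sorted wild type cells by mitochondrial share, 6.54% in the bottom set and 12.9% in the top set, against 9.09% and 8.49% with 4 uroplakins. The trend with transcript length was reversed in wild type under it, at rho 0.39, and was -0.21 and -0.14 in the knockouts. In the knockouts 2 of 38 and 1 of 37 members changed sign. There the ranking by Upk2 gave log2 ratios of 0.27 and 0.34 for Rab25, 0.41 and 0.5 for Rab11a, and -0.44 and -0.53 for Rab27a. Rab27b was at 0.26 and 0.44 in the knockouts, so by Upk2 its steepest slope was in wild type.

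Of the wider Rab machinery, 2 listed genes were at least 1.5-fold higher in the top set in all 3 libraries. Rab11fip5, an effector of Rab11, went from 23.17 to 45.41 CPM in wild type, 17.23 to 29.83 CPM in the Lpar6 knockout and 13.51 to 27.86 CPM in the Cab39l knockout. Snx31, a sorting nexin of urothelial endosomes, went from 159.8 to 304.4, 185.7 to 298.1 and 163.8 to 295.6 CPM. They were 1 of 27, 24 and 25 effectors and 1 of 15 fusion and turnover genes that were higher (background 3.29%, 2.12% and 2.72%). Lower in wild type (background 8.34%) were 3 of 27 effectors (Micall1, Sytl3 and Ehbp1l1), 3 of 30 exchange or activating factors (Rin2, Sgsm3 and Rin1), 1 of 9 exocyst genes (Exoc6b) and 1 of 15 fusion genes (Stx3), of which Rin2 was also lower in the Lpar6 knockout. Exocyst genes had 0 higher in each library.

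Between the libraries, no Rab gene that passed the minimums was at least 1.5-fold higher in a knockout than in wild type. In the Lpar6 knockout 4 of 39 members were at least 1.5-fold lower (10.3%, against 31.8% of all genes): Rab27a, Rab23, Rab15 and Rab31. In the Cab39l knockout 4 of 39 were lower (10.3%, against 32.7%): Rab27a, Rab23, Rab8b and Rab33b. The backgrounds for higher genes were 1.29% and 0.856%. Both comparisons use the same wild type library, so what they share cannot be set apart from a trait of that library, and 20 members did not reach the minimums in either. Median log2 values were -0.31 and -0.3 for the members and -0.38 and -0.36 for all genes. The urothelial cells of the libraries also differed in marker genes. Basal markers summed to 1676, 554.2 and 1611 CPM. Umbrella markers summed to 8409, 11080 and 10210 CPM. That list holds Upk1a, Upk2 and Upk3a, which also chose the cells, so its sum is not independent of that choice. Of the uroplakins that chose and ranked the cells, Upk1a was at 1818, 2761 and 2852 CPM and Upk2 at 849.2, 538.6 and 565.2 CPM, each over 1.5-fold apart from wild type in both knockouts. With 5 bins of uroplakin share given equal weight in each library, the log2 ratio of Rab27a was -0.67 and -0.84, in place of -0.86 and -0.99. The part of the other marker differences was not tested.

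Rab27a was the lowest member in both. From 26.91 CPM in wild type it was at 14.39 and 13.04 CPM, a 1.87-fold (1.76 to 1.99) and 2.06-fold (1.94 to 2.19) lower level. Rab23, of ciliary signalling, was at 6.345, 3.693 and 3.332 CPM, and Rab15 was 1.57-fold (1.52 to 1.61) and 1.5-fold (1.46 to 1.54) lower, with the latter just short of 1.5-fold on the log2 (CPM + 1) scale. Rab8b was 1.34-fold (1.24 to 1.44) and 1.63-fold (1.51 to 1.76) lower, Rab14 1.42-fold (1.39 to 1.44) and 1.49-fold (1.47 to 1.51), and Rab27b 1.3-fold (1.28 to 1.32) and 1.32-fold (1.3 to 1.34).

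The highest log2 ratios belonged to Rab3a, a vesicle fusion member, from 8.179 CPM to 10.81 and 11.46 CPM (0.36 and 0.44), to Rab25 (0.25 and 0.41), to Rab28 in the Lpar6 knockout (0.33, from 17.14 to 21.82 CPM) and to Rab34 in the Cab39l knockout (0.43, from 5.618 to 7.895 CPM). All were under 1.5-fold. Rab11a was at 0.1 and 0.08. Of the members below that minimum, a pair picked for their size of change is given here: Rab6b was 3.99-fold (3.2 to 5.0) lower in the Lpar6 knockout than in wild type, and Rab17 was 3-fold (1.92 to 4.87) higher, on 118 and 24 UMIs.

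These directions rest on the scaling, because most genes had a lower CPM in the knockouts. With TMM scaling, which sets the median of all genes at 0.01 and 0.02, 5 members were higher and 0 lower in the Lpar6 knockout, and 8 higher and 1 lower in the Cab39l knockout. The 5 were Rab25, Rab28, Rab20, Rab3a and Rab24, and the 1 that stayed lower in the Cab39l knockout was Rab27a. Over all alternatives, the log2 ratio of Rab27a lay between -0.92 and -0.46 in the Lpar6 knockout and between -1.04 and -0.61 in the Cab39l knockout. That of Rab25 lay between 0.05 and 0.67 and between 0.23 and 0.82, and that of Rab15 between -0.66 and -0.23 and between -0.6 and -0.17. Rab27b ranged from -0.45 to 0.28 and from -0.46 to 0.32, and Rab14 from -0.53 to 0.1 and from -0.6 to 0.06, so neither has a direction against wild type.

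Length moved with the knockout ratios too. Across 39 members rho between the log2 ratio and transcript length was -0.58 and -0.66, against -0.65 and -0.71 across all genes. Members under 2.62 kb had a median of 0.08 and 0.06 (16 genes), those up to 4.32 kb -0.37 and -0.46 (14 genes) and longer ones -0.39 and -0.4 (9 genes). All genes in these classes had medians of 0.0 and 0.04, -0.41 and -0.38, and -0.66 and -0.7. Whether length, the mitochondrial share or the deletions set the Rab ratios was not tested.

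Centred on genes of like length, Rab27a was at -0.47 and -0.64, Rab25 at 0.05 and 0.23, Rab15 at -0.25 and -0.22 and Rab27b at 0.28 and 0.32. Long members with flat levels then led, Rab18 (6.515 kb) at 0.78 and 0.73 and Rab11b (6.109 kb) at 0.48 and 0.74. Rab28 was at 0.6 and 0.43.

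**Figure D4:**
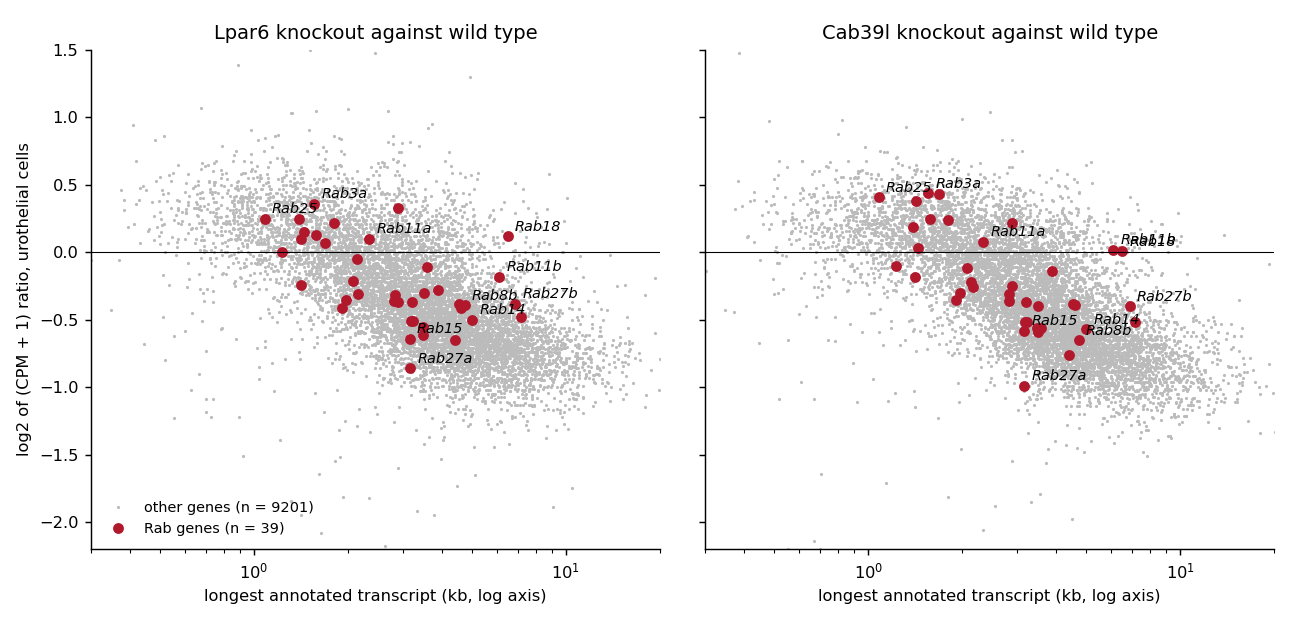
Log2 ratio of each knockout to wild type in urothelial cells (y axis, from CPM + 1) against the longest annotated transcript (x axis: kb, log scale), for Rab genes (red) and other genes (grey) that passed the minimums. Rab27a lies below genes of its length in both panels, at -0.86 and -0.99, and Rab18 above them, at 0.12 and 0.01.

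The 2 knockouts did not differ by 1.5-fold in any of 38 members, against 0.794% of all genes higher and 0.828% lower in the Lpar6 knockout. Rab2b, of the Golgi, had the highest log2 ratio of the Lpar6 to the Cab39l knockout at 0.45, or 5.061 against 3.432 CPM, a ratio of 1.47 (1.31 to 1.66). Rab8b (0.26) and Rab2a (0.17) followed. At the other end were Rab34 (-0.36), Rab4a (-0.27) and Rab11b (-0.2). Rab27b was at 284.8 and 281.5 CPM, a ratio of 1.01 (0.998 to 1.03), and Rab11a at 1.01 (0.993 to 1.03).

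In the machinery around the Rabs, many genes were lower in the knockouts, against a background of 31.8% and 32.7%, but these lists hold long genes and their counts rest on the scaling. Effectors and motors were at least 1.5-fold lower in 15 of 27 (Lpar6 knockout) and 20 of 27 (Cab39l knockout), and exchange factors and GTPase activators in 16 and 19 of 30. The exocyst had 6 and 5 of 9 lower, and fusion and turnover genes 3 and 2 of 15, with 0 higher in each of these lists. Median longest transcripts were 5.363 kb for effectors, 5.288 kb for exchange factors and activators, 4.598 kb for the exocyst and 2.754 kb for fusion and turnover genes, against 3.413 kb for all genes in the Lpar6 comparison. In checks added after the data were seen, TMM scaling left 2 and 2 effectors, 2 and 3 exchange factors or activators, 1 and 2 exocyst genes and 0 fusion genes lower (3.92% and 5.27% of all genes). Centred on genes of like length, 0 and 2, 0 and 0, 0 and 1, and 0 and 0 were lower (2.18% and 1.81% of all genes). Sytl2, which links Rab27 to the plasma membrane, was at 241.3 CPM in wild type and 124.2 and 116.9 CPM in the knockouts. Rgp1, of an exchange factor for Rab6, was at 17.1, 7.674 and 7.739 CPM, and Exoc6b at 22.07, 9.897 and 9.845 CPM. Between the knockouts 0 genes of these lists were 1.5-fold apart.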

How the data were processed

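The authors deposited raw UMI counts per gene and barcode for 3 libraries of 10x 3′ single-cell RNA sequencing, with whole numbers and unequal totals. Cell Ranger 3.0.2 and the mm10 build are named in the submitters' processing notes, and the sources used here do not give the annotation release. UMIs were summed per library and cell set, scaled to CPM, and compared as log2 of (CPM + 1) ratios (Python 3.11.15, numpy 2.4.6, scipy 1.17.1, pandas 2.3.3). Immune cells needed 1000 UMIs, at most 20% mitochondrial UMIs and 0.2% of UMIs from 8 leukocyte genes with at least 3 of them found. Immune cells were placed in the set with most marker UMIs, at least 3. No doublet caller was run, and leaving out the 6% deepest cells was an alternative.

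A ratio entered a count with at least 50 UMIs over both sums and 5 CPM in the higher. The folds were 1.5 between libraries and between uroplakin sets, and 2 between urothelial and immune cells. Intervals are exact Poisson intervals for levels and ratios and Clopper-Pearson intervals for shares, and they cover counting error only. Transcript lengths are the longest GENCODE vM21 transcript, found for 99.6% of genes and all 59 members. The scripts were tested on simulated data.

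Named with values are the 3 highest and 3 lowest members of each comparison, and 17 members chosen for their place in vesicle traffic. Examples from the lists of other pathway genes are named too, and they were not always the largest of their list. Members singled out in the immune sets, in the sensitivity checks or below the minimums were chosen after their values were seen. The members and lists were chosen with earlier results of these data known. The motif and GC counts left out the chromosome that holds Rab18 and Rab27b, so upstream windows of these members were not searched. Protein sequences were not used here. A result on the prenylation list is not reported here.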

Additional observations from a re-analysis of the deposited data

Results flagged for a closer look

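Rab25 was flagged in the barcodes outside both cell sets (3018, 2737 and 3161, of which 2354, 1821 and 2153 had over 20% mitochondrial UMIs). It was at 129.8, 244.2 and 271.3 CPM (wild type, Lpar6 knockout, Cab39l knockout), a log2 ratio of the last to wild type of 1.06. The comparisons did not use these barcodes, but they come from the same libraries and their cell types were not identified. The share of all genes past that fold was not counted. Rab27b went the other way there, at 371.2, 265.5 and 201.8 CPM.

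Rab2b had opposite signs between libraries in urothelial against immune cells, with log2 values of -0.46 (wild type), 2.6 (Lpar6 knockout) and -1.37 (Cab39l knockout). The Lpar6 value rests on 0 of 260302 immune UMIs and is under the floor of 3 counts on both sides, so it is no fold. The immune cells held 20 and 10 UMIs in wild type and the Cab39l knockout. The difference between libraries was not tested.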

How the results depend on the processing

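With 1 library a group, no replicate could be left out. No paired analysis was possible because each group has a single library and the labels give no replicate numbers. Of the counts of members past a fold, 148 alternative values stayed within 1.5 times the main count and 42 did not. All 42 follow, and the cause was not tested.

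Against wild type, members lower in the Lpar6 knockout went from 4 to 1 with at most 10% mitochondrial UMIs, 0 with TMM or median-of-ratios scaling, 2 with a minimum of 20 CPM and 0 centred by length, and members higher from 0 to 5, 5 and 2 with TMM, median-of-ratios scaling and length centring. In the Cab39l knockout lower members went from 4 to 2, 1, 1, 2 and 1 in the same order, and to 7 with cells weighted equally, and higher members from 0 to 8, 7 and 2. Between the knockouts, 1 member was apart without a minimum.

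Members apart along uroplakin share went from 4 in wild type to 2 with uroplakins at 0.5% of UMIs, either scaling, 20 CPM, middle depth or length centring. In the Lpar6 knockout they went from 1 to 0 with 20 CPM or Upk2 alone. In the Cab39l knockout they went from 1 to 2 with cells from 2000 UMIs, either scaling or length centring, 4 without a minimum, and 0 without the 6% deepest cells, with 20 CPM, Upk2 alone or middle depth. Under Upk2 alone in wild type, 23 of 39 members changed sign. Among them were 3 that were over 1.5-fold apart with 4 uroplakins, Rab25 to -0.13, Rab27a to 0.36 and Rab31 to 0.01, and smaller ones such as Rab5a, to 0.28.

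Against immune cells, lower members without a minimum were 16, 11 and 13 in wild type, Lpar6 and Cab39l knockout. With 20 CPM, higher members were 7 (Lpar6 knockout) and 5 (Cab39l knockout), and lower members 5 in the latter. With TMM, 14 were higher in the Cab39l knockout. The 78 immune cells of the Lpar6 knockout limit that library, where 6 of the 11 higher members had at most 3 immune UMIs.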
